A study of Mus musculus with 6 samples.

Results

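The genes described here are the 10 that build, load and switch on MHC class II in the mouse, chosen by name from the 54648 gene symbols of the table: H2-Aa, H2-Ab1, H2-Eb1, Cd74, Ciita, H2-DMa, H2-DMb1, H2-DMb2, H2-Oa and H2-Ob. All 10 were measured, and all 10 passed the filter on low counts that left 15608 genes for testing. RNA came from peritoneal cells, mostly macrophages, of C57BL/6 mice aged 6 to 8 weeks, harvested after an intraperitoneal injection of thioglycollate, an irritant that draws monocytes into the cavity. Of the 6 samples, 3 were wild type (WT 1 to 3) and 3 were labelled as Foxo3 knockouts (FOXO3 KO 1 to 3). Foxo3 is a forkhead transcription factor. Mice of both genotypes had been fed standard chow. The labels name no promoter or Cre line that would restrict the knockout to macrophages. Each library was 1 sample, so the p-values below set a group difference against the spread between these libraries. The sample titles do not say whether a sample came from 1 mouse.

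MHC class II molecules are pairs of an alpha and a beta chain that carry peptides from endosomes to the surface of antigen-presenting cells, where CD4+ T cells read them. The invariant chain, encoded by Cd74, fills the groove of a new class II molecule and guides it to the endosome; H2-M (H2-DMa with an H2-DMb chain) then exchanges the remaining fragment for peptide, and H2-O (H2-Oa with H2-Ob) holds H2-M back, chiefly in B cells. Ciita, the class II transactivator, docks on a promoter module of an X box and a Y box bound by RFX, CREB and NF-Y proteins. Macrophages induce Ciita with interferon gamma, whereas B cells express it constitutively.

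The libraries held between 28083393 and 36424117 counts. Foxo3 was at 117, 107 and 72.9 CPM (counts per 1000000 after TMM scaling of the library totals) in WT 1, 2 and 3, at 4.71 and 4.28 CPM in FOXO3 KO 1 and 3, and at 104 CPM in the library labelled FOXO3 KO 2, which therefore goes against its label. The main edgeR test and the DESeq2 test between the genotypes were also made without that library. The limma-voom test and all comparisons of patterns between genes kept it. WT 3 stood apart from the other libraries: the summed markers of resident large peritoneal macrophages were at 4606 CPM there and between 202 and 567 CPM in the other 5, and it shared only with FOXO3 KO 3 a high level of Xist, the RNA of the inactive X chromosome (869 and 1127 CPM, against at most 0.177 CPM elsewhere). Adgre1, Csf1r and the other macrophage markers were present in all 6, and their 10 genes summed to between 13880 and 18695 CPM. Lyz2 alone was at 7724 to 11420 CPM, so the sums say little about the other markers. Csf1r, Cd68, Lyz2, C1qb, Mertk, Cd14 and Fcgr1 were lowest in WT 3, while Adgre1, C1qa and Itgam were highest there. Cd68 was at 523 CPM in WT 3 and between 988 and 1471 CPM elsewhere.

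Of the 10 genes, 8 lie in the class II region of chromosome 17 on mm10 (GRCm38), between the start of H2-Oa at 34092340 and the end of H2-Eb1 at 34316674. Ciita lies on chromosome 16 (10480059 to 10528418). RefSeq promoter windows (GRCm38.p6) were at hand for 7 of the 10 and not for H2-Ab1, Ciita and Cd74. Bases before the RefSeq start, outside annotated exons, are printed here for 4 genes because they show what a classical chain, an H2-O chain and an H2-M chain share at their starts; capitals mark an X box match (AGNNAC, then any 3 bases, then TG) or a Y box match (TGATTGG).
H2-Eb1, chr17:34305721-34305866, plus strand: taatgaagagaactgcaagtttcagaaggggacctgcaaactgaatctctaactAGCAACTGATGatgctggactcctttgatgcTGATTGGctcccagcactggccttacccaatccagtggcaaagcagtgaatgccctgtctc
H2-Ob, chr17:34238755-34238902, plus strand: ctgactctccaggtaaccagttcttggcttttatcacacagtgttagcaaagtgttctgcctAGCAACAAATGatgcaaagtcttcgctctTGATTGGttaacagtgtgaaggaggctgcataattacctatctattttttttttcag
H2-Aa, chr17:34287824-34287973, minus strand: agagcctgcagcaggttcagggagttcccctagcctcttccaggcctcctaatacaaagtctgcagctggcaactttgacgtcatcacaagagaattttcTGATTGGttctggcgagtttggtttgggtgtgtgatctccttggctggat
H2-DMb2, chr17:34145099-34145235, plus strand: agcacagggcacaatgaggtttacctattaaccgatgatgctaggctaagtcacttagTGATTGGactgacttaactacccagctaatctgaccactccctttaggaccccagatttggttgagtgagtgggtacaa

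Both motifs were searched on both strands of the 250 bases before each start, and they were chosen after these windows had been read. The Y box was found in 6 of the 7 genes, all but H2-DMa, and in 7.23% of all 32851 windows. For H2-DMa the bases searched lay near 34122821 and 34125517, inside its GENCODE span of 34119541 to 34139101. Any other start of H2-DMa was not searched. X box matches stood in H2-Eb1, H2-Ob, H2-DMb1 and H2-Oa, and in 12.2% of all windows. An X box with a Y box starting 20 to 60 bases after it was found in H2-Eb1, H2-Ob and H2-DMb1, and in 0.0731% of all windows. The H2-Ob and H2-Eb1 modules are nearly in register, with X boxes starting 88 and 92 bases and Y boxes 59 and 61 bases before the start. These are matches of letters and no measure of binding. A gene without a match may still hold a box whose letters differ from the pattern searched.

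No class II gene passed the test between FOXO3 KO and WT. By the edgeR quasi-likelihood test, 0 of the 10 were called at an FDR under 0.05 with a change of more than 1.5-fold, where 0.0% of the 15608 genes tested were called; none of the 10 had an unadjusted p under 0.05, against 5.68% of all genes. DESeq2 also called 0 of the 10, where it called 0.532% of 31378 genes, and had 2 of the 10 at an unadjusted p under 0.05, against 4.71% of all genes. With limma-voom 0 of the 10 were called, where 0.0% of all genes were, and 0 had an unadjusted p under 0.05, against 5.22%. Without the library labelled FOXO3 KO 2 the test again called 0 of the 10, where 0.0% of 16217 genes were called. The smallest adjusted p of any gene was 0.714 over all 6 libraries and 0.105 without that library (edgeR). Foxo3 itself was therefore not called in either set. With no gene called by edgeR in either set of libraries, neither the 10 genes nor the gene lists below could hold a call. Of the 10 fitted log2 fold changes 4 were positive and 6 negative, with a median of −0.17, beside a median of −0.01 and 51.2% negative over all genes tested. For none of the 10 did the 3 FOXO3 KO values lie apart from the 3 WT values, as they did for 12.4% of all genes tested. The spread within a genotype differed between the genes: the SD of log2(CPM + 0.5) over the 3 WT libraries was between 0.134, for H2-Ab1, and 1.59, for H2-DMb2.

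**Figure D1:**
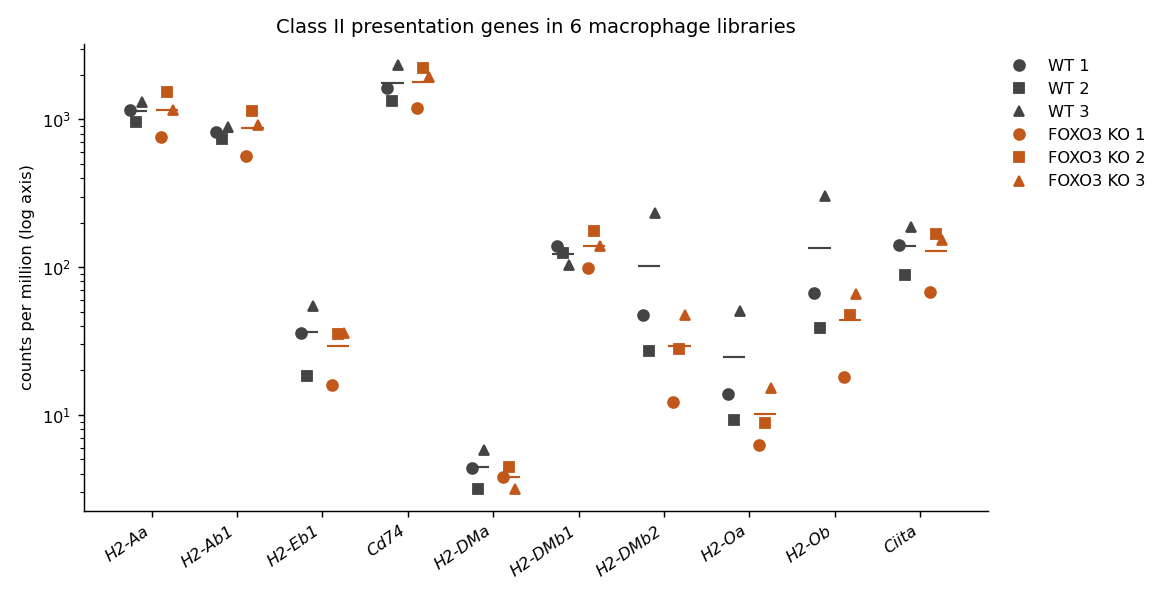
Level of each class II gene in the 6 libraries, in CPM on a log axis. Points are libraries (marker shape gives the replicate number), and bars are the means of the 3 WT and the 3 FOXO3 KO libraries. FOXO3 KO 1 was lowest for 9 of the 10 genes, and the WT 3 triangles stand far above the rest for H2-DMb2, H2-Oa and H2-Ob.

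The classical chains were abundant in all libraries. H2-Ab1, the beta chain of I-A, was at 824, 737 and 887 CPM in WT 1, 2 and 3 and at 567, 1129 and 907 CPM in FOXO3 KO 1, 2 and 3. The 3 WT values lay inside the range of the FOXO3 KO values, whose highest library was the one with Foxo3 at the WT level. The log2 fold change was 0.09 (SE 0.27, 95% CI −0.57 to 0.75, adjusted p = 0.95, edgeR), so a rise of 1.5-fold lay within the interval. H2-Aa, its alpha partner, was at 1147, 958 and 1304 CPM in WT and at 759, 1533 and 1154 CPM in FOXO3 KO, in the same order of libraries apart from WT 3 and FOXO3 KO 3. Its log2 fold change was 0.01 (SE 0.29, 95% CI −0.69 to 0.72, adjusted p = 0.99, edgeR).

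The alpha and beta chains of I-A kept nearly one proportion. Per kilobase of transcript, the ratio of H2-Aa to H2-Ab1 was between 1.37 and 1.58 in the 6 libraries, although each chain varied 1.99-fold to 2.02-fold between its lowest and highest library. H2-Eb1, the beta chain of I-E, was far lower, at 35.9, 18.4 and 54.9 CPM in WT and 16.0, 35.4 and 36.1 CPM in FOXO3 KO. Its ratio to H2-Ab1 per kilobase was between 0.0181 and 0.0449. C57BL/6 mice make no I-E molecule because their E alpha gene is defective: the symbol H2-Ea-ps had 0 counts in all 6 libraries, which allows at most 0.0824 to 0.107 CPM.

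Cd74 was the most abundant of the 10 and moved with the chains it escorts. The gene lies outside the class II region, on chromosome 18 (60803848 to 60812652). It was at 1619, 1324 and 2317 CPM in WT and 1198, 2209 and 1929 CPM in FOXO3 KO, and its log2 fold change was 0.02 (SE 0.33, 95% CI −0.77 to 0.82, adjusted p = 0.99, edgeR). Its ratio to H2-Ab1 per kilobase was between 1.54 and 1.83 in 5 libraries and 2.25 in WT 3. Per kilobase, the order Cd74, H2-Aa, H2-Ab1 held in each of the 6 libraries, with WT means of 1243 ± 362, 1008 ± 154 and 673 ± 62.1 CPM per kilobase (SD, n = 3). The spread of Cd74 overlapped that of H2-Aa, while H2-DMb1 came next at only 87.1 ± 12.99 CPM per kilobase (SD, n = 3). The 10 genes together took between 0.267% of the counts, in FOXO3 KO 1, and 0.599%, in WT 3.

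Ciita, the class II transactivator, spanned 2.76-fold between its lowest and highest library, more than H2-Aa and H2-Ab1 and less than H2-Eb1, which spanned 3.44-fold. It was at 141, 89.0 and 188 CPM in WT and 68.2, 166 and 152 CPM in FOXO3 KO, with FOXO3 KO 1 and WT 2 the lowest as they were for H2-Ab1, H2-Aa, Cd74 and H2-Eb1. Its log2 fold change was −0.11 (SE 0.41, 95% CI −1.10 to 0.87, adjusted p = 0.96, edgeR). The member nearest to Ciita in its pattern over the libraries was H2-Eb1. After centring log2(CPM + 0.5) on its mean over the 6 libraries, their root-mean-square difference was 0.160, and the closest pair of members was H2-Aa and H2-Ab1 at 0.0678.

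The peptide exchanger H2-M was uneven. H2-DMb1, the more abundant beta chain gene in 5 of the 6 libraries, was at 140, 124 and 103 CPM in WT and 99.1, 177 and 139 CPM in FOXO3 KO, and its log2 fold change was 0.18 (SE 0.23, 95% CI −0.38 to 0.74, adjusted p = 0.89, edgeR). It was the only one of the 10 with its second-lowest value in WT 3, and it differed from H2-DMa by a root-mean-square of 0.422. H2-DMa, the alpha chain both beta chains need, was at 4.37, 3.14 and 5.80 CPM in WT and 3.82, 4.48 and 3.14 CPM in FOXO3 KO, from 89 to 208 counts a library. Per kilobase, H2-DMa stood at 0.0119 to 0.0242 of the summed beta chains; 9.23% of the 31-base words of its GENCODE M21 transcripts also occur in transcripts of Brd2, and the part of the counting in this low level was not tested.

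**Figure D2:**
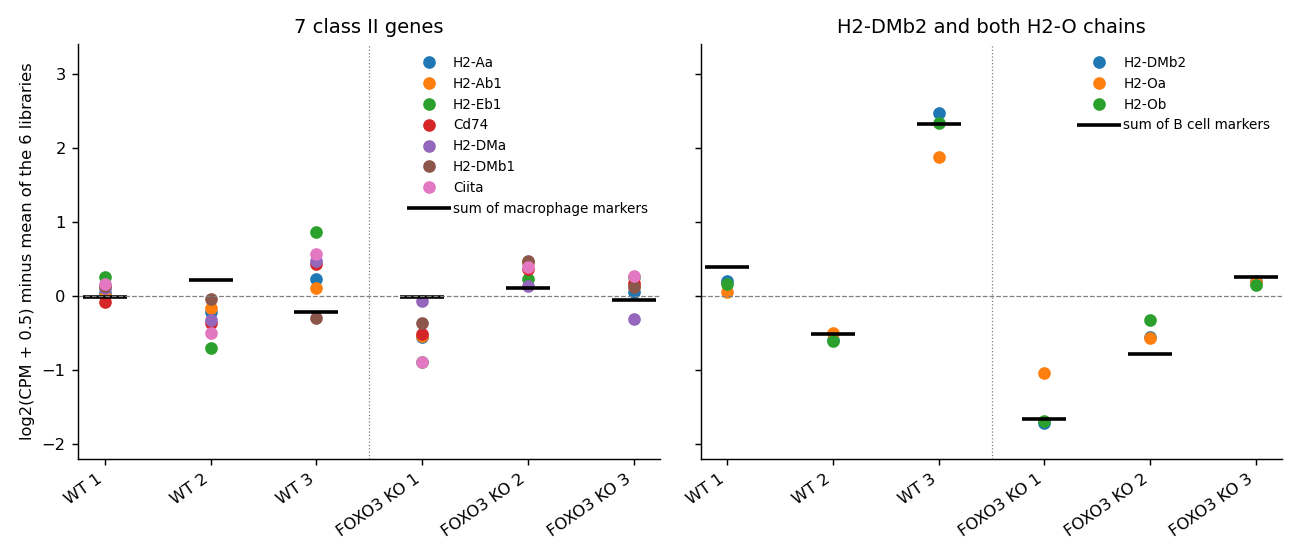
Deviation of each gene from its own mean over the 6 libraries, in log2(CPM + 0.5); the vertical dotted line separates WT from FOXO3 KO. Left, 7 genes with the summed macrophage markers (black bars). Right, H2-DMb2, H2-Oa and H2-Ob with the summed B cell markers (black bars). Their root-mean-square differences from the B cell sum over the 6 libraries were 0.144 to 0.354. Some libraries differed by more: in FOXO3 KO 1, H2-Oa was at −1.04 and the sum at −1.665. The division into 7 and 3 was made after the values had been seen.

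H2-DMb2 and both H2-O chains varied far more between libraries than the other members, with WT 3 far above the rest. The order of libraries did not set them apart, as H2-Eb1 ranked the libraries as H2-DMb2 did. H2-DMb2, the second H2-M beta chain gene, was at 47.5, 27.2 and 231 CPM in WT and 12.3, 27.96 and 47.6 CPM in FOXO3 KO. WT 3 was 4.86 times the next library, and FOXO3 KO 3 was level with WT 1, so the groups overlapped. H2-Ob was at 66.3, 38.9 and 301 CPM in WT and 18.1, 47.1 and 65.7 CPM in FOXO3 KO, with WT 3 at 4.54 times the next library. H2-Oa was at 14.0, 9.31 and 50.6 CPM in WT and 6.27, 8.86 and 15.3 CPM in FOXO3 KO, with WT 3 at 3.31 times the next. Between the lowest and the highest library these genes spanned 18.8-fold, 16.6-fold and 8.08-fold, against 1.78-fold to 3.44-fold for the other 7.

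Their fitted changes were the largest of the 10 and rested on WT 3. The log2 fold change over all 6 libraries was −1.80 for H2-DMb2 (SE 0.90, 95% CI −3.98 to 0.38), −1.63 for H2-Ob (SE 0.86, 95% CI −3.71 to 0.44) and −1.28 for H2-Oa (SE 0.69, 95% CI −2.96 to 0.40), each with an adjusted p of 0.84 by edgeR. In that order the unadjusted p was 0.090, 0.103 and 0.113, where the smallest adjusted p of any gene was 0.714 (edgeR). Without WT 3 the log2 fold changes were −0.34, −0.26 and −0.18. Without the library labelled FOXO3 KO 2 they were −1.76, −1.69 and −1.19. Without that library all 10 log2 fold changes were negative (median −0.34). Over all genes tested 52.4% were negative there (median −0.02). Of the FOXO3 KO libraries then left, FOXO3 KO 1 was the lowest of all libraries for 9 of the 10 genes. FOXO3 KO 3 was below WT 1 only for H2-DMa, H2-DMb1 and H2-Ob. For the other members it was above WT 1 and WT 2, and for H2-Ab1 also above WT 3. Without WT 3 only 3 of the 10 were negative, beside 49.3% of all genes tested, and the median was 0.09. With both libraries left out only Cd74 was positive, at 0.088. The other members then lay between −0.33 and −0.063, and 51.5% of all genes tested were negative.

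**Figure D3:**
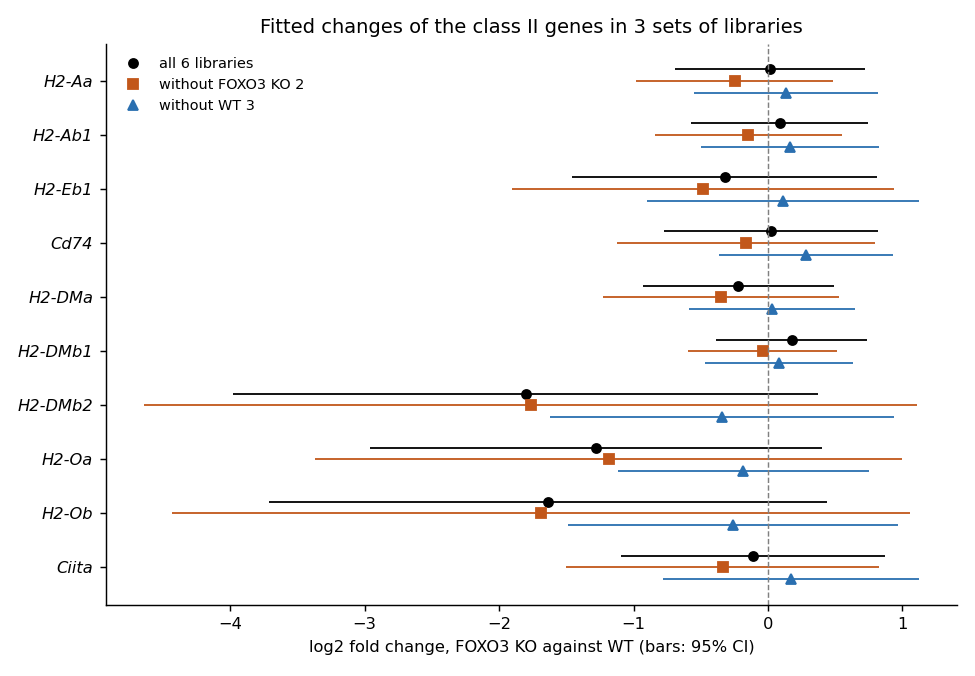
Log2 fold change of each class II gene, FOXO3 KO against WT, with 95% confidence intervals from edgeR, over all 6 libraries (black circles), without the library labelled FOXO3 KO 2 (orange squares) and without WT 3 (blue triangles). Every interval includes 0, and the values of H2-DMb2, H2-Oa and H2-Ob move towards 0 without WT 3.

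These 3 genes moved with B cell transcripts. The 8 B cell markers, among them Cd79a and Ms4a1, summed to 1523, 810 and 5782 CPM in WT 1, 2 and 3 and to 365, 672 and 1381 CPM in FOXO3 KO 1, 2 and 3. Each of the 8 was highest in WT 3 and lowest in FOXO3 KO 1, and each had a negative log2 fold change, with a median of −1.87 over all 6 libraries and −0.49 without WT 3; none was called. The root-mean-square difference from that summed level was 0.144 for H2-DMb2, 0.217 for H2-Ob and 0.354 for H2-Oa, and between 0.798 and 1.32 for the other 7 genes, over the same 6 libraries. H2-Oa lay nearer to the summed T cell markers, at 0.205, and these too were highest in WT 3 (115 CPM, against 17.6 to 44.3 CPM elsewhere). The summed resident large peritoneal macrophage markers, also highest in WT 3, differed by 0.728 from H2-DMb2, 0.7 from H2-Ob and 0.799 from H2-Oa. In these bulk samples fewer cells of a type and less RNA per cell cannot be told apart, and the part of B cells in the class II values was not tested.

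Within the H2-M beta chains the mixture of genes changed with it. The ratio of H2-DMb2 to H2-DMb1 per kilobase was 2.12 in WT 3 and between 0.117 and 0.324 in the other 5 libraries, an 18-fold span. The neighbouring genes share sequence: 31.4% of the 31-base words of H2-DMb1 transcripts also occur in H2-DMb2, so both values depend on how the authors' counting divided such reads. H2-Oa to H2-Ob varied less, between 0.413 and 0.848. Of the 31-base words of H2-Oa 18.3% occur in BC051537, in a search that took both strands together. Whether the counting used strand is not given in the sources used here. H2-Ob shared no such words.

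Genes outside the set with the most similar centred levels over the libraries differed between the groups of members. Among 10536 genes with a mean of at least 5 CPM, the 5 nearest to H2-Ab1 were Irgm1, Igtp, Map3k15, Phf11b and Dtx3l, at root-mean-square differences of 0.0866 to 0.132. Irgm1 and Igtp encode interferon-inducible GTPases; Irgm1 was at 69.3, 60.1 and 73.3 CPM in WT and 51.6, 106 and 85.4 CPM in FOXO3 KO. Nearest to Ciita were Gm47102, Gvin1, Gm4070, Ifi47 and Gbp3 (0.0949 to 0.142), of which Gvin1, Ifi47 and Gbp3 are also interferon-inducible GTPase genes. Nearest to H2-Ob were Gimap6, Ablim1, Gimap3, Pecam1 and Ets1 (0.0696 to 0.0987), and Gimap6, a GTPase gene of lymphocytes, was at 75.2, 45.3 and 333 CPM in WT and 21.9, 51.3 and 67.9 CPM in FOXO3 KO. None of these 15 genes was called between the genotypes, and nearness over 6 libraries is a description.

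The genes that carry the interferon gamma signal to Ciita gave no call, where edgeR called 0.0% of all 15608 genes tested. Of 8 listed, 7 were tested and 5 had positive log2 fold changes, with a median of 0.13. Irf1, which binds the inducible Ciita promoter, was at 126, 78.2 and 131 CPM in WT and 64.4, 186 and 149 CPM in FOXO3 KO. It was lowest in FOXO3 KO 1 and highest in the library labelled FOXO3 KO 2. Ifng itself was at 0.106 to 0.437 CPM and was not tested. The receptor chains Ifngr1 and Ifngr2 were lowest in WT 3, at 193 and 94.2 CPM.

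Among the 7 promoter partners of Ciita, 6 had negative log2 fold changes and none was called, with a median of −0.08. Rfxank, an RFX subunit, was at 16.2, 16.7 and 18.01 CPM in WT and 13.6, 14.6 and 12.8 CPM in FOXO3 KO. It was the only one of the 34 pathway genes tested whose groups did not overlap. Of all genes tested, 12.4% lay apart in either direction and 5.37% in the direction of Rfxank. Its log2 fold change of −0.31 (SE 0.12) had an adjusted p of 0.84 by edgeR. Rfx5, the RFX subunit that touches the X box, was at 56.8 CPM in WT 3 and between 13.3 and 20.9 CPM in the other 5 libraries. Nfya, Nfyb, Nfyc and Creb1 spanned narrower ranges, 96.2 to 145 CPM for Nfya and 89.6 to 113 CPM for Creb1.

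The proteases that cut the invariant chain and antigens were lowest in WT 3. Ctss, which trims the invariant chain to its last fragment, was at 4416, 5555 and 1880 CPM in WT and 4349, 5066 and 3518 CPM in FOXO3 KO. Ctsl was at 1145 CPM in WT 3 and between 2313 and 4231 CPM elsewhere. All 6 genes of this list, which also holds Ctsb, Ctsd, Lgmn and the thiol reductase Ifi30, had positive log2 fold changes over 6 libraries (median 0.12), and 5 of the 6 were negative without WT 3 (median −0.20); none was called. March1, the ubiquitin ligase that removes class II from the surface, was at 143, 128 and 207 CPM in WT and 124, 146 and 168 CPM in FOXO3 KO.

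MHC class I genes shared part of the pattern of the classical class II chains. Nlrc5, the class I counterpart of Ciita, was at 87.1, 61.2 and 97.4 CPM in WT and 45.6, 112 and 102 CPM in FOXO3 KO. Tap1, a subunit of the peptide transporter, was at 115, 97.6 and 153 CPM in WT and 68.5, 151 and 119 CPM in FOXO3 KO. Of the 9 class I genes, 7 were lowest in FOXO3 KO 1, 7 had negative log2 fold changes (median −0.10) and none was called. Without WT 3 the median was 0.03 with 4 of the 9 negative, and without the library labelled FOXO3 KO 2 it was −0.23 with 8 of the 9 negative. The costimulators Cd80, Cd86 and Cd40 were each highest in WT 3, with log2 fold changes of −0.19, −0.08 and 0.12, and none was called.

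**Figure D4:**
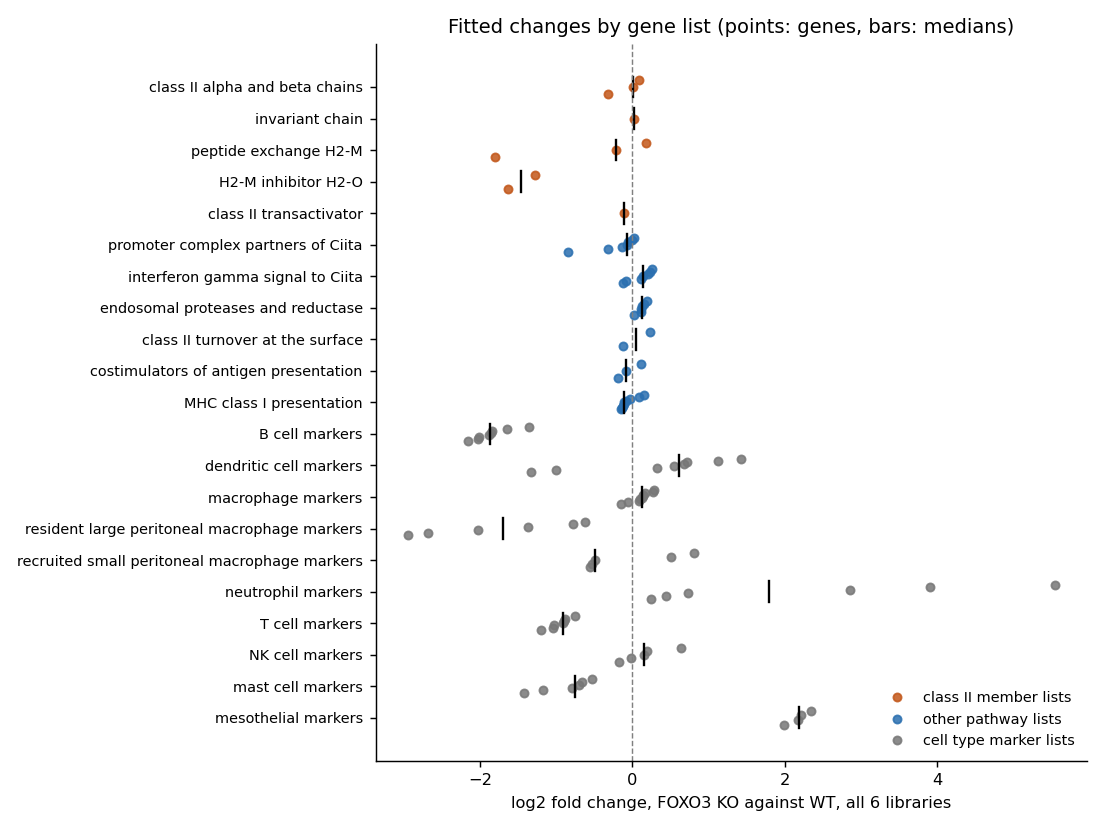
Log2 fold change over all 6 libraries for each gene of the lists, FOXO3 KO against WT; points are genes and black bars are medians. H2-DMb2 and the H2-O chains lie between −1.28 and −1.80, while the other class II genes lie near 0. The median was −1.87 for the B cell markers and −1.69 for the resident large peritoneal macrophage markers.

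Other cell types also varied with the libraries. Markers of dendritic cells, which are rich in class II, summed to 65.6, 51.0 and 227 CPM in WT and 67.5, 93.7 and 120 CPM in FOXO3 KO; none of the 8 was at 0 in all libraries. The WT 3 sum was mostly Ccr7 (118 CPM) and Fscn1 (55.6 CPM). Ccr7, like each of the 8 B cell markers, was highest in WT 3 and lowest in FOXO3 KO 1. Xcr1, Clec9a and Siglech were lowest in WT 3, and 6 of the 8 markers had positive log2 fold changes (median 0.61), though none was called. The groups did not overlap for 2 of the 8, Xcr1 and Siglech, where 12.4% of all genes tested lay apart in either direction. Xcr1 and Siglech were at 0.697 to 2.22 CPM and 0.864 to 2.57 CPM in WT. In FOXO3 KO they were at 2.59 to 3.92 CPM and 3.72 to 5.95 CPM. The root-mean-square difference of the summed markers from the class II genes was between 0.412, for H2-Eb1, and 0.804, for H2-DMb2. Mast cell markers were highest in WT 3 as well, at 774 CPM against 99.5 to 291 CPM elsewhere. Neutrophil markers summed to 164, 179 and 122 CPM in WT and 448, 179 and 374 CPM in FOXO3 KO. Csf3r made up 137, 139 and 115 CPM of the WT sums. S100a8, S100a9 and Cxcr2 were far higher in FOXO3 KO 1 and 3 than in any WT library. Retnlg and Ltf overlapped between the groups, and Ly6g and Ngp were under 1 CPM in all libraries. Mesothelial markers summed to 4.79, 4.13 and 4.10 CPM in WT and 9.17, 35.98 and 13.9 CPM in FOXO3 KO. The part of these cells in the class II values was not tested.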

How the data were processed

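The submitters' processing notes name STAR 2.6.1d, kallisto 0.46.0, DESeq2 and the build mm10, without saying which step each served. Reads were paired-end, 76 bases long, from total RNA. The authors deposited estimated counts per gene symbol, without normalization; 81.4% of them were whole to within 0.01, and the rest were rounded to the nearest whole count. The smallest chi-square per degree of freedom between any pair of libraries was 19.6, so each library was counted as its own sample. CPM are counts per 1000000, over the library total times its TMM factor (0.936 to 1.10).

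Groups came from the sample titles. FOXO3 KO was compared with WT by edgeR 4.0.16 in R 4.3.3 (filterByExpr, TMM, glmQLFit, glmQLFTest, Benjamini-Hochberg over all genes tested; common dispersion 0.103), and SEs were derived from the log2 fold change and its F statistic. A gene was called when its FDR was under 0.05 and its change more than 1.5-fold. DESeq2 1.42.0, limma-voom (limma 3.58.1), other scalings and filters, a replicate block, an Xist covariate (split at 10 CPM) and left-out libraries were alternatives. The fits were tested on simulated data. The pseudocount was 0.5 CPM, used for centred levels and likeness.

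Lengths, the longest protein-coding transcript in the basic set, and 31-base words came from GENCODE M21, on the submitters' build, and promoters from RefSeq. Tables were made with Python 3.11.15. The members, lists and alternatives were chosen with earlier results of these data known. Genes named are the 10 members, Foxo3, listed genes and the 5 genes nearest to each of H2-Ab1, Ciita and H2-Ob; BC051537 and Brd2 were added after their shared sequence was seen. Values of some listed genes are not reported here. The differences are relative to a median log2 fold change of −0.01 over all genes.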

Additional observations from a re-analysis of the deposited data

How the results depend on the processing

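No class II gene was called under any of the 17 alternatives; over the 170 values the smallest adjusted p was 0.41, and 147 kept their direction. The genes called over all symbols were 0 by edgeR, 167 by DESeq2 and 109 by DESeq2 with the library labelled FOXO3 KO 2 left out. With WT 3 and FOXO3 KO 2 both left out edgeR called 4. The cause was not tested. Every other alternative called no gene at all, so it could not have called a class II gene. H2-DMb2, H2-Oa and H2-Ob were negative throughout, H2-DMb2 between −2.34 and −0.34, H2-Oa between −1.70 and −0.18 and H2-Ob between −2.07 and −0.26 with 1 library left out.

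Directions near 0 turned. H2-Aa became −0.0248 by limma-voom and −0.0189 with library size without factors, as did Cd74 (−0.0221) with the latter. With WT 3 and FOXO3 KO 2 both left out, H2-Aa was −0.14, H2-Ab1 −0.0822 and H2-DMb1 −0.145. By DESeq2 with FOXO3 KO 2 left out, H2-Aa was −0.24, H2-Ab1 −0.14, Cd74 −0.15 and H2-DMb1 −0.0338. With 1 library left out in turn, values ran from −0.25 to 0.24 for H2-Aa, −0.15 to 0.32 for H2-Ab1, −0.64 to 0.11 for H2-Eb1, −0.16 to 0.28 for Cd74, −0.41 to 0.029 for H2-DMa, −0.0379 to 0.37 for H2-DMb1 and −0.35 to 0.19 for Ciita.

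The replicate block gave 0 calls, put H2-Aa at −0.0343, and gave unadjusted p of 0.032 for H2-DMb2 and 0.031 for H2-Oa (both adjusted p = 0.72, edgeR). With it 1033 of 15608 genes had an unadjusted p under 0.05. The Xist covariate gave unadjusted p of 0.024 for H2-DMb2 and 0.017 for H2-Oa (edgeR), where 1606 of 15608 genes were under 0.05. Without WT 2, H2-DMb2, H2-Ob and H2-Oa were at 0.035, 0.040 and 0.041 (edgeR), where 1539 of 16385 genes were. Without the filter on low counts H2-DMb2 was at 0.045 (edgeR), where 1618 of 31439 were. The labels do not say whether shared numbers pair the mice. Deviations of same-numbered libraries correlated at 0.339, −0.0612 and 0.567 across genes. WT 1 and WT 3 correlated best with FOXO3 KO 1 and FOXO3 KO 3, while WT 2 correlated best with FOXO3 KO 1.

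Replicate number, 3 against 3 with 1 library at odds with its label, limits these values; H2-DMa, at 89 to 208 counts, is also limited by depth. Of the 5 nearest genes, 4 for H2-Ab1 and all 5 for Ciita and H2-Ob stayed with a pseudocount of 2. The means of members moved by less than 1 SD with library size without factors.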
